A study of Homo sapiens with 15 samples.

Results

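Interferon-stimulated and RNA-sensing genes form the set described here. It holds 39 genes chosen by symbol for what they are known to do: 5 RNA sensors and double-stranded RNA-binding enzymes, 4 oligoadenylate synthetases, 4 transcription factors, 4 IFIT proteins, 12 membrane and other antiviral effectors, 8 genes of ISG15, ubiquitin and ADP-ribose chemistry, and 2 nuclear body proteins. All 39 were found among the 57905 genes of the deposited table. Of these, 37 passed the filter on low values, which asked for at least 0.5 FPKM (fragments scaled to transcript length and library size) in at least 3 of 12 libraries, and 17214 genes of the whole table passed it. DHX58 and XAF1 did not pass.

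Total RNA of SW480 cells, an established human colorectal adenocarcinoma line, was sequenced in 4 groups of 3 libraries each. Control cells received the buffer PBS. LPS cells received lipopolysaccharide, a cell-wall component of Gram-negative bacteria, at 1 µg/ml for 4 h. PINT shRNA1 cells had been transduced with a lentivirus carrying a short hairpin against the long noncoding RNA PINT and received PBS, and the last group, PINT shRNA1 with LPS, carried the hairpin and received LPS. The labels list no non-targeting hairpin, so the effects of hairpin and virus cannot be told apart, and they do not say whether the hairpin-labelled cells were 1 clone or a pool, or whether replicates were separate cultures. The p-values therefore measure the spread between these libraries, which may be technical.

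RIG-I (encoded by DDX58) and MDA5 (encoded by IFIH1) bind viral double-stranded RNA in the cytoplasm and signal through MAVS to IRF3 and NF-κB, which switch on interferon genes. Secreted interferon acts through its receptor, JAK kinases and a complex containing STAT2 and IRF9 that binds interferon-stimulated response elements (ISRE) in the promoters of antiviral genes. Several of these genes can also be transcribed through NF-κB or IRF factors without interferon. LPS is known to signal through TLR4 to NF-κB, and in cells with the TRIF branch also to IRF3.

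The promoter windows of the members were read from RefSeq on GRCh38.p14, from 250 bases before to 50 bases after each annotated start. A window was found for 31 members, and 20 of them (64.5%) held the ISRE core (GAAA, any 2 bases, GAAA) on either strand, against 4.38% of the 27305 genes with a window. The core TTCNNNGAA of the gamma-activated site was present in 9 members (29%) and 9.38% of all genes, and the kB motif of NF-κB in 7 members (22.6%) and 7.09% of all genes. The 3 motifs were counted separately, and matches could overlap. Because the members are known interferon-stimulated genes, the ISRE share describes the choice of genes.

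Windows of 6 members whose values are given further on are printed 5′ to 3′ on the strand of the gene, from 250 bases before to 10 bases after the start, with motif matches in capitals. ISG15 (chr1:1013247-1013506, plus strand), IFIT1 (chr10:89392373-89392632, plus strand) and IFI44 (chr1:78649539-78649798, plus strand) are shown because they rose in the hairpin-labelled libraries, and DTX3L (chr3:122564088-122564347, plus strand) because it fell there. Capitals in these 4 mark the ISRE core. IFIH1 (chr2:162318675-162318934, minus strand) and DDX58 (chr9:32526187-32526446, minus strand, listed as RIGI) are shown because they rose with LPS, and their capitals mark the ISRE core or the kB motif.
ISG15: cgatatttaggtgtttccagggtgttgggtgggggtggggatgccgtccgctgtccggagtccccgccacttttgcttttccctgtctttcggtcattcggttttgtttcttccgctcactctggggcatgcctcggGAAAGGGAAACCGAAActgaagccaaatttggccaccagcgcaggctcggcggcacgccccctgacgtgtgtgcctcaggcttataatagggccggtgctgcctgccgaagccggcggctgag
IFIT1: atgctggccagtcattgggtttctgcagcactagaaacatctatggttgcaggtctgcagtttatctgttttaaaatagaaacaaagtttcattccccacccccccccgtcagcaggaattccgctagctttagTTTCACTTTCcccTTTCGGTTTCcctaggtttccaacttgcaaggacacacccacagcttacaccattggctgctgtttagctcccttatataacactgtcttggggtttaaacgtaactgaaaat
IFI44: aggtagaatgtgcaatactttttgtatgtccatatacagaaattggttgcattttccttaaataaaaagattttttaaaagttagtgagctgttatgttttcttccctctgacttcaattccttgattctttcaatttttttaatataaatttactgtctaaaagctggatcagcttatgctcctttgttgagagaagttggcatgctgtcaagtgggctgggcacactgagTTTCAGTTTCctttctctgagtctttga
DTX3L: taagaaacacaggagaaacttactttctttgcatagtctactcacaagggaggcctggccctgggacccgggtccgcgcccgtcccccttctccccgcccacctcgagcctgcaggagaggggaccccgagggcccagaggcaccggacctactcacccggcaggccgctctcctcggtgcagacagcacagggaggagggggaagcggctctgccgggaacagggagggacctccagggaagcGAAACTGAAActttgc
IFIH1: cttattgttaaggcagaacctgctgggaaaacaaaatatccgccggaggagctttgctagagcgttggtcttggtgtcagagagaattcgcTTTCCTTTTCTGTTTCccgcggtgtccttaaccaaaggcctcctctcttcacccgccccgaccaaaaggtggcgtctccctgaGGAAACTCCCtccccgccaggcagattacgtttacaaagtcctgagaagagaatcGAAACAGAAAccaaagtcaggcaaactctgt
DDX58: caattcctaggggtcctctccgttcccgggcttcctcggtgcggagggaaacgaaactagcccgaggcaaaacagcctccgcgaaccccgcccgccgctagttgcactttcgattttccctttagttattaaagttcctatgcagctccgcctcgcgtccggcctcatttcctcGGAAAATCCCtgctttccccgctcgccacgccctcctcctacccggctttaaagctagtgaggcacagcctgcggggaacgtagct

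The ISRE cores of ISG15 begin 113 and 107 bases before the start and share bases. Those of IFIT1 begin 116 and 103 bases before it. IFIH1 has ISRE cores beginning 159, 153 and 21 bases before its start and a kB match beginning 76 bases before it. DDX58 has a kB match that also begins 76 bases before the start, and these letters of the ISRE core are not in its window. Only 4 of the 31 members held both the ISRE core and the kB motif. PARP14, which also rose with LPS and is not printed above, held the ISRE core and no kB match. Of the other members with a kB match, OAS3, IRF1, IFITM3 and BST2 were not called with LPS alone, and XAF1 was not tested.

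**Figure D1:**
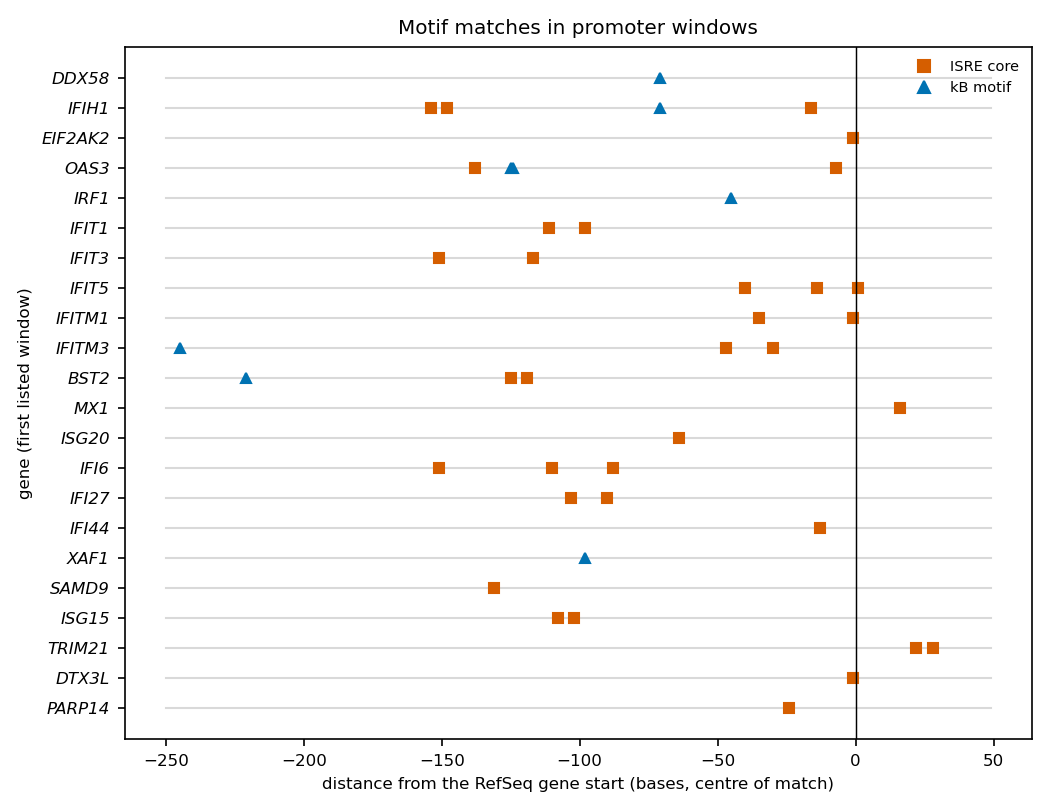
Centres of ISRE core and kB motif matches in bases from the RefSeq gene start (x axis) in the first listed window of each of the 22 members with a match (rows). IFIH1 has both kinds of match, and DDX58 has the kB match alone.

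The 12 libraries were compared with their labels first. Their relative depth, read from the steps of low FPKM values with control replicate 1 set to 1, was 0.809 to 1 in control and 0.848 to 0.858 in LPS, and under the hairpin label 0.914 to 1.05 without and 1.3 to 1.51 with LPS. The hairpin-labelled libraries listed 30725 to 31961 genes above 0 and the others 27078 to 28430. LINC-PINT (ENSG00000231721), the gene the hairpin is labelled to target, was at 2.88, 2.56 and 2.51 FPKM in control and 2.4, 2.82 and 1.91 in LPS. Under the hairpin label it was at 4.55, 5.26 and 5.34 without LPS and 3.54, 4 and 4.08 with LPS. It was therefore higher, not lower, under the hairpin label (0.81 ± 0.118 SE on the log2 scale, limma adjusted p = 0.000592, without LPS, and 0.61, adjusted p = 0.00284, with LPS), so "hairpin" and "PINT shRNA1" stand below for the label these libraries carry.

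Member levels spanned more than 3 orders of magnitude. IFITM2 and IFITM3, membrane proteins that block entry of viruses, had the highest means over the 12 libraries at 132 and 105 FPKM, followed by ADAR, the adenosine deaminase that edits double-stranded RNA, at 48.5 FPKM. In all, 12 members averaged at least 10 FPKM, 32 at least 1 FPKM and 7 less than 1 FPKM. The low ones were DHX58 (LGP2, a regulator of RIG-I and MDA5), OASL, IFIT1, IFIT2, IFI44, USP18 and XAF1. IFI44 and XAF1 were listed at 0 in at least 1 library. Replicates were tight: the median SD of the members within a group was 0.0845 to 0.125 on the log2 scale, beside 0.0868 to 0.128 for all tested genes.

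**Figure D2:**
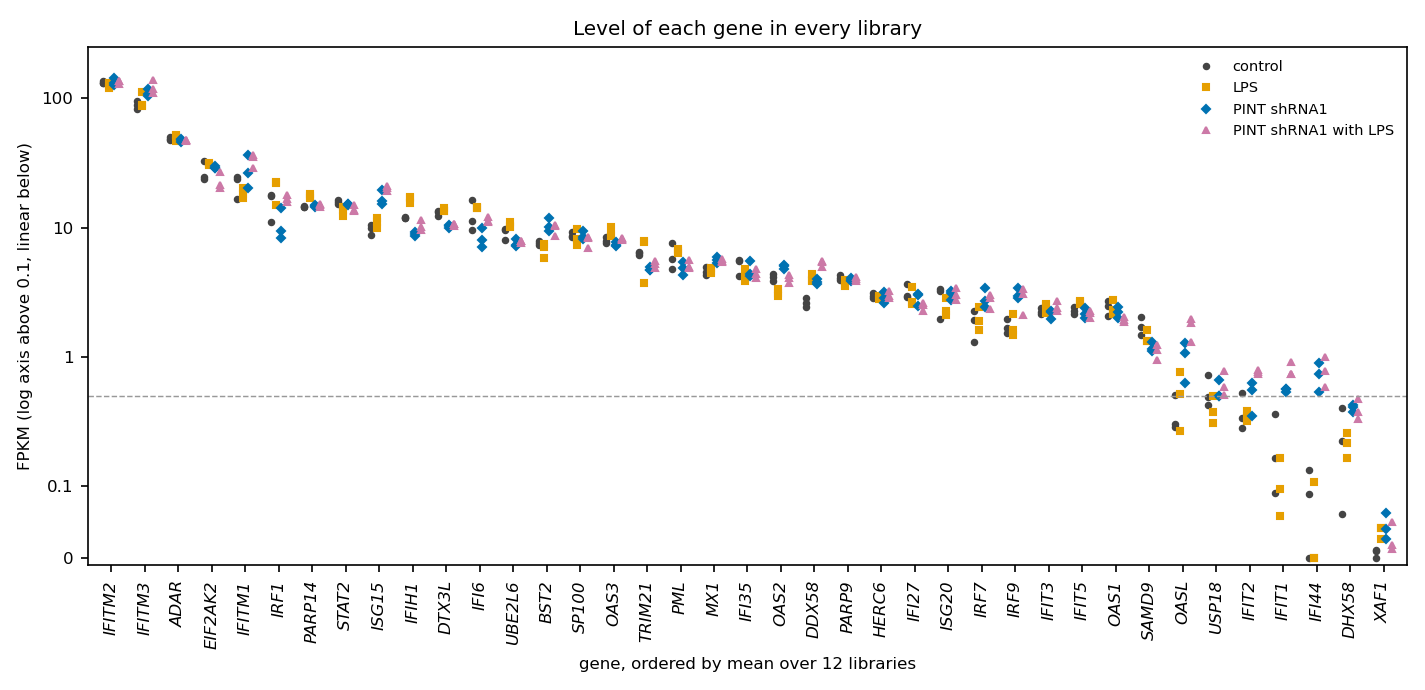
FPKM of each of the 39 genes (x axis) in each of the 12 libraries (points, coloured by group) on a y axis that is linear near 0 and logarithmic above, with a dashed line at the 0.5 FPKM filter. IFITM2 (121 to 143 FPKM) and IFITM3 (83 to 138 FPKM) lie highest, and IFI44 and IFIT1 are low genes whose hairpin-labelled libraries lie above the others.

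Tests were run with limma on log2(FPKM + 0.5) across all 17214 genes, and a gene was called at a Benjamini-Hochberg adjusted p under 0.05. All fold changes are on this scale, where the added 0.5 shrinks the differences of genes with low values. In bulk RNA, fewer cells with a transcript and less of it per cell cannot be told apart.

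With LPS alone, 3 members rose and 1 fell. DDX58, IFIH1 and PARP14 rose and OAS2 fell. These 4 calls are 10.8% of the 37 tested members, against 2.76% of all tested genes (1.57% higher and 1.19% lower). The median change over the members was 0.0029, and over all tested genes it was -0.04. With median scaling or quantile normalization the members' calls were 3 higher and 0 lower, and over all genes they were 440 higher and 116 lower or 299 higher and 128 lower, against 271 higher and 204 lower as reported. When the control and LPS libraries were fitted alone, IFIH1 was the 1 member called, and 0.738% of all tested genes were called.

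The libraries labelled PINT shRNA1 differed from control at 15 members, of which 10 were higher and 5 lower. That is 40.5% of the tested members against 27.3% of all genes (16.9% higher and 10.3% lower). Without replicate 3 of PINT shRNA1 the count was 9, where 21.5% of all tested genes were called. It was also 9 when no filter on low values was used, where 10.1% of all tested genes were called (OAS2, OASL, IFITM3, IFI6, SAMD9 and UBE2L6 were lost). With only these groups fitted, 10 members and 21.2% of all tested genes were called. The calls of OAS2, IFIT1, MX1, IFI6, SAMD9 and UBE2L6 were lost, and TRIM21 was gained. With LPS in both groups, 17 members differed, 12 higher and 5 lower, which is 45.9% against 29.2% of all genes (17.7% higher and 11.6% lower). Here 14 members and 10.8% of all tested genes were called without a filter, and EIF2AK2, IRF9 and IFITM3 were lost. With only these groups fitted, 17 members and 27.5% of all tested genes were called. IRF9 and IFITM3 were lost, and IFI6 and PML were gained. The counts of higher members include IFI44, IFIT1 and, with LPS, IFIT2. Apart from IFIT2 in control replicate 2, these genes reached 0.5 FPKM in hairpin-labelled libraries only. They therefore passed the filter through the groups where they are high. With a filter of 1 FPKM they were not tested. The calls were then 9 higher and 5 lower without LPS, where 30.9% of all tested genes were called. With LPS they were 9 higher and 6 lower, where 33.3% were called. USP18, at most 0.78 FPKM, was not tested with this filter either. OASL, among the higher calls in both, reached 1 FPKM in hairpin-labelled libraries only. It therefore passed this filter through the groups where it is high. The balance of directions moved with scaling. Members with LPS were 10 higher and 7 lower under median scaling and 11 higher and 8 lower under quantile normalization. Calls over all genes went from 2913 higher and 1780 lower to 2215 and 2151 under median scaling or 2263 and 2204 under quantile normalization without LPS. With LPS they went from 3039 higher and 1994 lower to 2349 and 2530 or 2561 and 2361. The median member change was -0.02 without and 0.05 with LPS, beside 0.06 and 0.05 over all genes.

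The hairpin contrasts without and with LPS share no library. BST2, DDX58, IFI44, IFIT1, IFITM3, IRF9, ISG15, MX1, OAS2 and OASL were higher in both, and IFIH1, DTX3L and UBE2L6 were lower in both. These 13 members are 86.7% of the calls without LPS and 76.5% of those with LPS. Among them, IFI44 and IFIT1 passed the filter only through hairpin-labelled libraries, the groups where they are high. Their place among these calls is therefore no independent support. Over all tested genes, 3327 genes were called alike, 70.9% and 66.1% of the respective calls. No member was called in opposite directions, and 12 of all tested genes were. The sign of the change was the same in 30 of 37 members (81.1%) and in 77.3% of all tested genes. Of the 10 members higher in both contrasts, 8 had a promoter window and 6 of these an ISRE core, IFI44 and IFIT1 included. The 3 lower ones all had a window, 2 with the core. Of the 18 tested members called in no contrast, 14 had a window and 7 the core. A link between the core and the calls was not tested.

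**Figure D3:**
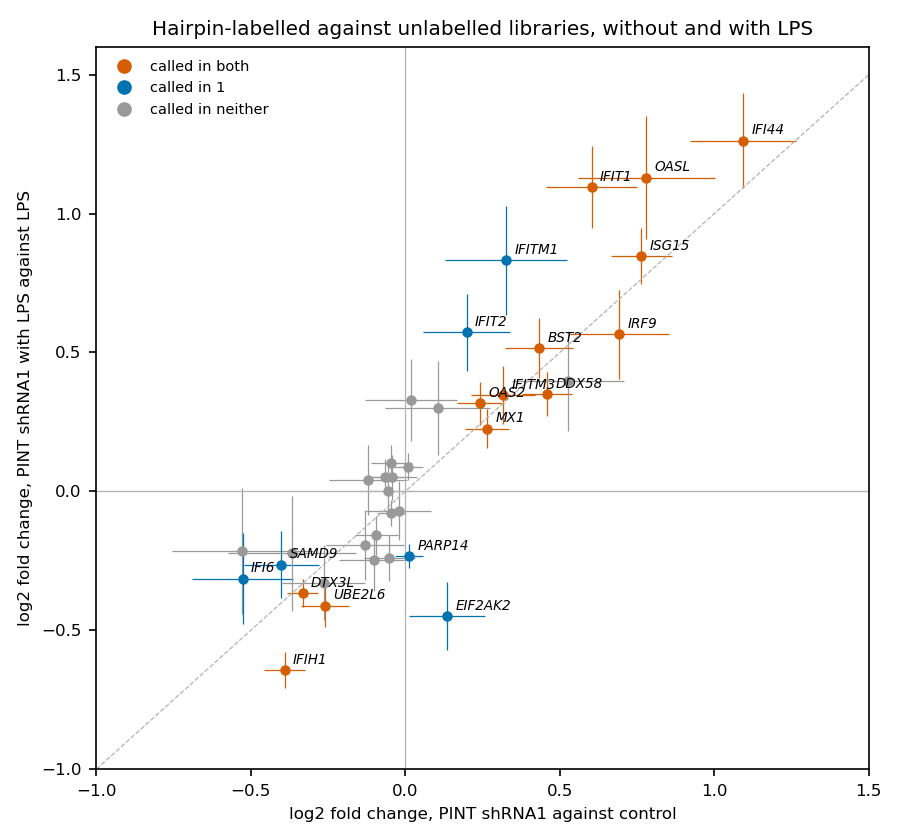
Log2 difference of the libraries labelled PINT shRNA1 from control (x axis) against that of PINT shRNA1 with LPS from LPS (y axis) for the 37 tested members, with standard errors as bars and colour showing whether a gene was called in both, 1 or neither contrast. IFI44, OASL, IFIT1 and ISG15 lie farthest up and to the right, and IFIH1 lies lowest.

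Under the hairpin label, LPS changed no member past the threshold by limma. Unadjusted limma p-values were under 0.05 for 9 of 37 tested members, and 8.76% of all tested genes had such a p. For LPS without the hairpin label, 7 of 37 members and 16.8% of all tested genes had one. By adjusted p, LPS under the hairpin label called only 0.186% of all tested genes (0.163% higher and 0.0232% lower). With median scaling or quantile normalization DDX58 was called higher. The median member change was 0.04, beside -0.04 over all tested genes. The test of whether the LPS response differed between cells with and without the hairpin label called 0 members. Of the 37 tested members, 4 had an unadjusted p under 0.05. It called 0.128% of all tested genes (0.0349% higher and 0.0929% lower), and 7.74% of them had an unadjusted p under 0.05. A difference in LPS response between the backgrounds was therefore not detected for any member.

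**Figure D4:**
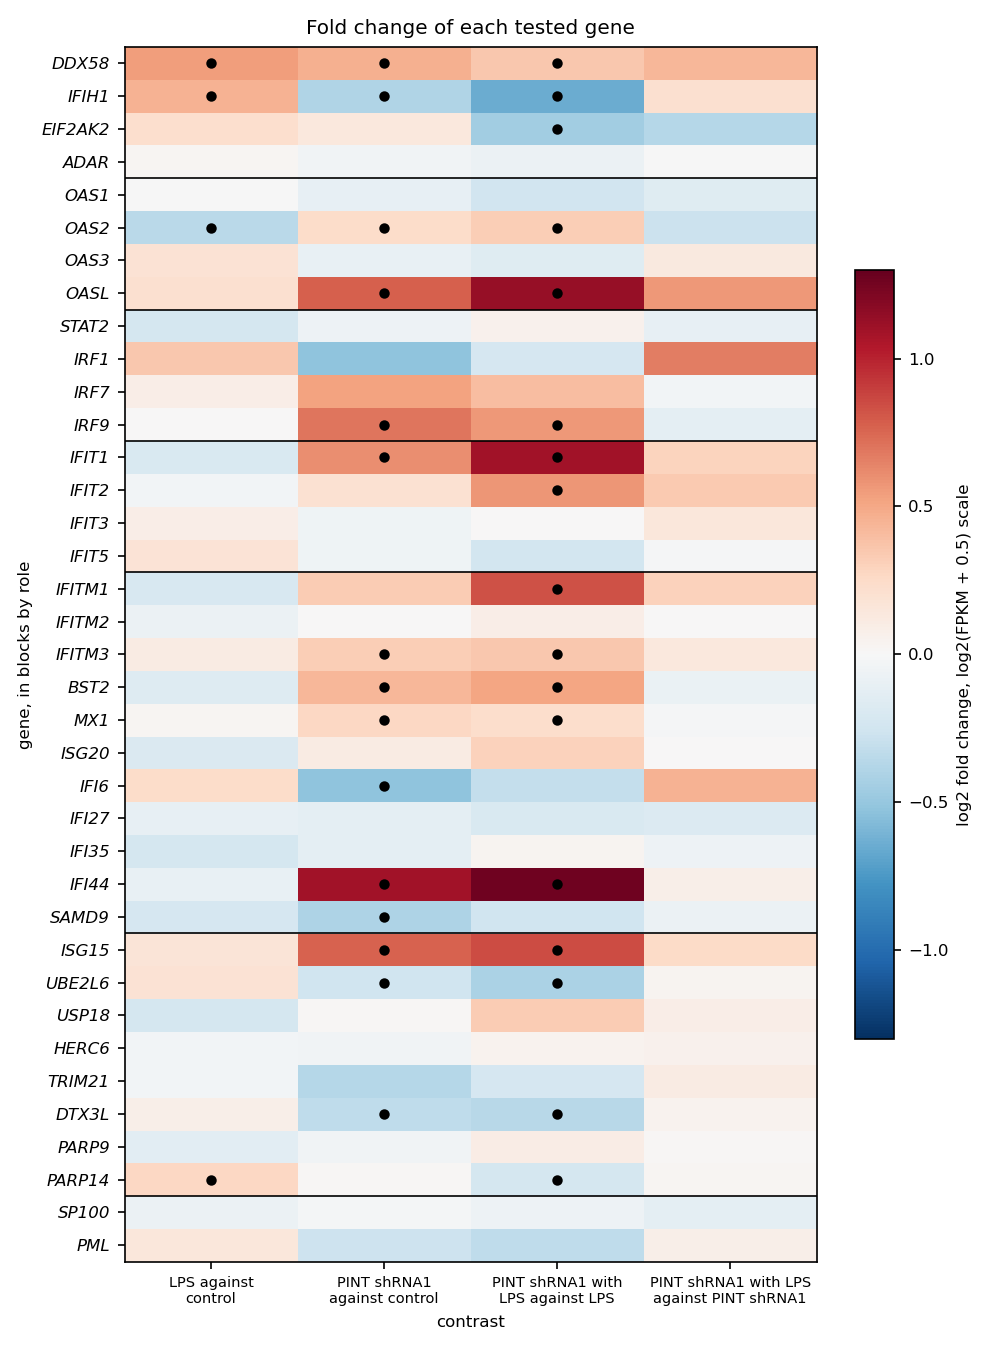
Log2 fold change (colour) of the 37 tested members (rows, in blocks by role) in 4 contrasts (columns), with a black dot where limma called the gene. The LPS column without the hairpin label has 4 dots, the LPS column under the hairpin label has none, and the hairpin columns have 15 and 17.

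Among the RNA sensors, DDX58 and IFIH1 rose together with LPS and moved apart under the hairpin label. DDX58 (ENSG00000107201), which encodes RIG-I, the sensor of RNA with a 5′ triphosphate, was at 2.64, 2.45 and 2.84 FPKM in control and 3.85, 3.97 and 4.43 in LPS. The libraries labelled PINT shRNA1 gave 3.8, 3.65 and 4.02 without LPS and 5.57, 4.99 and 5.47 with it. Every library of a treated group lay above all 3 controls, and the libraries with both hairpin label and LPS were the highest. The log2 change with LPS was 0.54 ± 0.0798 (SE, n = 3 per group, limma adjusted p = 0.00444), and that under the hairpin label was 0.46 (adjusted p = 0.0018) without and 0.35 (adjusted p = 0.00745) with LPS. LPS in the hairpin-labelled cells gave 0.43, which did not pass (adjusted p = 0.0788), and the difference of the LPS responses was -0.11 ± 0.113 (adjusted p = 0.854).

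IFIH1 (ENSG00000115267), which encodes MDA5, the sensor of long double-stranded RNA, was at 11.8, 12.1 and 11.9 FPKM in control and 15.5, 16.9 and 17.3 in LPS. Hairpin-labelled libraries were at 8.71, 9.02 and 9.2 without LPS and at 10.2, 9.66 and 11.4 with LPS. All 6 hairpin-labelled libraries lay below all 3 controls, and the LPS libraries were the highest. The LPS change was 0.46 ± 0.0654 (limma adjusted p = 0.00379). The hairpin differences were -0.39 (adjusted p = 0.00143) without and -0.64 (adjusted p = 5.38e-05) with LPS. Under the hairpin label LPS gave 0.2 (adjusted p = 0.397), and the difference of the LPS responses was -0.25 ± 0.0925 (adjusted p = 0.563).

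EIF2AK2 encodes PKR, the kinase that halts translation on binding double-stranded RNA. It was at 23.7, 24.7 and 33 FPKM in control and 31.8, 30.8 and 31.2 in LPS, and under the hairpin label at 29.1, 30.3 and 29.2 without and 27.1, 20.3 and 21.5 with LPS. The libraries with both hairpin label and LPS lay below all LPS libraries (-0.45, limma adjusted p = 0.0191), and control replicate 3 lay apart from the other controls. The call was lost without LPS replicate 1 or without replicate 2 or 3 of PINT shRNA1 with LPS. ADAR stayed between 46.1 and 52.3 FPKM and was called in no contrast. DHX58 was at 0.0616 to 0.478 FPKM, under the filter.

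The oligoadenylate synthetases make the short 2′-5′-linked adenylates that activate RNase L, except OASL, which lacks that activity and binds RIG-I. OAS2 was at 4.42, 3.91 and 4.15 FPKM in control and 3.15, 3.37 and 2.95 in LPS, with no overlap. Under the hairpin label the values were 5.1, 5.19 and 4.76 without LPS and 3.77, 4.32 and 4.08 with it. Its fall with LPS (-0.35 ± 0.0772, limma adjusted p = 0.0401) was lost in 16 of 21 alternatives, among them median scaling, quantile normalization and each left-out library except LPS replicate 2. The rise under the hairpin label without LPS (0.24, adjusted p = 0.0387) was lost in 10 of 21, among them median scaling and quantile normalization, and without control replicate 2 or 3, replicate 1 or 2 of PINT shRNA1 or replicate 3 of PINT shRNA1 with LPS. The rise under the hairpin label with LPS in both groups (0.32, adjusted p = 0.0105) was kept in all 21.

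OASL was at 0.303, 0.505 and 0.288 FPKM in control and 0.762, 0.268 and 0.514 in LPS. Under the hairpin label it was at 0.632, 1.08 and 1.29 without LPS and 1.82, 1.3 and 1.96 with LPS. The hairpin-labelled libraries lay above their controls in both contrasts, by 0.78 without (limma adjusted p = 0.0244) and 1.13 with LPS (adjusted p = 0.00329). The change with LPS alone was 0.21 ± 0.222 (adjusted p = 0.688). With a pseudocount of 0.1 in place of 0.5 the hairpin differences were 1.22 and 1.61, and with 1 they were 0.54 and 0.84. The first call was lost without control replicate 1 or 3 or PINT shRNA1 replicate 2 or 3. OAS1 (1.88 to 2.75 FPKM) and OAS3 (7.22 to 10.1 FPKM) were called in no contrast.

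Of the 4 transcription factors, IRF9 was the 1 called. IRF9, a DNA-binding subunit of the interferon-activated complex with STAT2, was at 1.67, 1.98 and 1.54 FPKM in control and 2.14, 1.47 and 1.61 in LPS. The libraries labelled PINT shRNA1 gave 2.99, 3.41 and 2.89 without LPS and 3.36, 2.1 and 3.07 with it. The rise under the hairpin label was 0.69 without LPS (limma adjusted p = 0.00879) and 0.57 with LPS (adjusted p = 0.0217), where replicate 2 of the hairpin-labelled group lay within the LPS range. That second call was lost without LPS replicate 2 or 3 or replicate 1 or 3 of PINT shRNA1 with LPS. In GENCODE 29, on GRCh38 and not on the build of the files, 48.4% of the exon bases of IRF9 overlap AL136295.5 on the same strand, so fragments could be assigned to either.

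STAT2, the partner of IRF9 in that complex, was at 12.4 to 16.4 FPKM and was called in no contrast (LPS change -0.22 ± 0.0627, limma adjusted p = 0.0944). IRF1, a transcription factor that NF-κB can switch on, was at 11.1, 17.9 and 17.6 FPKM in control and 22.2, 15 and 22.4 in LPS, and under the hairpin label at 14.2, 8.29 and 9.47 without and 17.8, 15.8 and 16.6 with LPS. Its libraries scattered more than those of most members, and neither the LPS change of 0.35 ± 0.227 (adjusted p = 0.48) nor that of 0.66 under the hairpin label (adjusted p = 0.433) passed. In GENCODE 29, 22% of its exon bases overlap C5orf56 on the opposite strand. IRF7, which amplifies interferon transcription, was at 1.3 to 3.41 FPKM, and its hairpin difference of 0.53 ± 0.181 without LPS lay just outside the threshold (adjusted p = 0.0529).

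The IFIT proteins bind foreign RNA ends or translation factors. IFIT1 and IFIT2 were low, and IFIT3 (1.96 to 2.7 FPKM) and IFIT5 (2 to 2.7 FPKM) were not called. IFIT1 was called higher in both hairpin contrasts and IFIT2 only in the one with LPS. Apart from IFIT2 in control replicate 2, both reached 0.5 FPKM in hairpin-labelled libraries only. They passed the filter through the groups where they are high. IFIT1 averaged 0.205 FPKM in control and 0.107 in LPS, and under the hairpin label 0.558 without and 0.796 with LPS. Its hairpin differences were 0.6 ± 0.149 (limma adjusted p = 0.0123) and 1.1 (adjusted p = 0.000354), and with a pseudocount of 0.1 they were 1.2 and 2.14, with 1 they were 0.38 and 0.7. The first call was lost when PINT shRNA1 and control were fitted alone. IFIT2 averaged 0.381, 0.352, 0.512 and 0.768 FPKM in the same order and was called with LPS (0.57 ± 0.139, adjusted p = 0.0105), with 0.2 (adjusted p = 0.33) without LPS. Whether the IFIT2 differences themselves differed is the interaction, which called no member. With a pseudocount of 0.1 the IFIT2 difference with LPS was 0.94, and with 1 it was 0.39.

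Of the membrane and other antiviral effectors, 11 were tested. Without LPS the hairpin calls were 4 higher and 2 lower, where 16.9% of all tested genes were higher and 10.3% lower. With LPS they were 5 higher and 0 lower, where 17.7% of all tested genes were higher and 11.6% lower. IFI44, counted as higher in both, passed the filter through hairpin-labelled libraries only. BST2 encodes tetherin, which holds budding virions at the cell surface. It was at 7.94, 7.34 and 7.69 FPKM in control and 7.44, 7.04 and 5.88 in LPS, and under the hairpin label at 10.1, 9.49 and 12 without and 10.6, 8.7 and 10.4 with LPS. All 6 hairpin-labelled libraries lay above the 6 others, and the differences were 0.43 ± 0.109 (limma adjusted p = 0.0138, lost without PINT shRNA1 replicate 3) and 0.52 (adjusted p = 0.00505).

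MX1, a dynamin-like GTPase active against influenza virus, was at 4.98, 4.31 and 4.52 FPKM in control and 4.5, 4.63 and 4.92 in LPS, and under the hairpin label at 5.61, 5.32 and 5.96 without and 5.58, 5.4 and 5.71 with LPS. These groups did not overlap either, but the differences were small: 0.27 ± 0.0704 (limma adjusted p = 0.0177) and 0.23 (adjusted p = 0.0336). The first was lost without control replicate 2 or PINT shRNA1 replicate 3, and the second without LPS replicate 1 or 2 or any 1 library of PINT shRNA1 with LPS, and under median scaling or quantile normalization.

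IFITM1 was at 23.8, 16.7 and 24.8 FPKM in control and 18.2, 20.4 and 17.1 in LPS, and under the hairpin label at 36.3, 20.4 and 26.5 without and 29, 35 and 36.5 with LPS. Its hairpin difference passed with LPS (0.83, limma adjusted p = 0.00927), where the groups did not overlap, and not without (0.33 ± 0.197, adjusted p = 0.257). IFITM3 was at 95.3, 88.8 and 83 FPKM in control and 112, 89.8 and 87.4 in LPS, and under the hairpin label at 109, 105 and 119 without and 111, 118 and 138 with LPS. Its differences of 0.32 ± 0.105 (adjusted p = 0.0455) and 0.35 (adjusted p = 0.0295) were lost in 12 and 7 of 21 alternatives, among them median scaling for both and quantile normalization for the first. For the first these included leaving out control replicate 2 or 3, LPS replicate 2, any 1 library of PINT shRNA1 or replicate 2 of PINT shRNA1 with LPS, and for the second LPS replicate 2 or 3 or replicate 2 or 3 of PINT shRNA1 with LPS. IFITM2 stayed between 121 and 143 FPKM and was not called. In GENCODE 29, 32% of the exonic 50-base stretches of IFITM1, 34.3% of IFITM2 and 35.2% of IFITM3 also occur in another gene. Part of this is overlapping annotation: IFITM1 and IFITM2 overlap by 351 exon bases on the same strand, and IFITM3 overlaps the lincRNA AC136475.5 by 287 bases on the opposite strand. Fragments may be split between such genes.

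IFI44, a cytoplasmic protein of hepatitis C-associated microtubular aggregates, averaged 0.0746 FPKM in control and 0.0362 in LPS, and under the hairpin label 0.728 without and 0.793 with LPS. Its hairpin-labelled libraries, at 0.542 FPKM or more, lay above all libraries without the label, which were at 0.134 FPKM or less and at 0 in 3 cases. The fitted differences were 1.09 ± 0.17 (limma adjusted p = 0.000925) and 1.26 (adjusted p = 0.000342). They depend on the pseudocount: IFI44 gave 2.31 and 2.78 with 0.1, and 0.68 and 0.79 with 1.

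IFI6 and SAMD9 went the other way. IFI6, a membrane protein that restricts flaviviruses at the endoplasmic reticulum, was at 11.2, 16.4 and 9.65 FPKM in control and 7.11, 9.89 and 7.99 in PINT shRNA1, with overlap (-0.53 ± 0.164, limma adjusted p = 0.0354). It was at 14.3, 14.5 and 14.3 in LPS and 12.1, 11.3 and 11 in PINT shRNA1 with LPS (-0.31, adjusted p = 0.179). SAMD9, a poxvirus restriction factor, was at 1.7, 2.05 and 1.49 FPKM in control and 1.32, 1.11 and 1.16 in PINT shRNA1 (-0.4 ± 0.12, adjusted p = 0.0304). It was at 1.33, 1.61 and 1.33 in LPS and 1.24, 0.945 and 1.13 in PINT shRNA1 with LPS (-0.26, adjusted p = 0.127). The IFI6 call was lost without control replicate 2 or PINT shRNA1 replicate 1 or 3, and the SAMD9 call without control replicate 1 or 2 or PINT shRNA1 replicate 2 or 3. ISG20 (1.96 to 3.44 FPKM), IFI27 (2.28 to 3.7 FPKM) and IFI35 (3.88 to 5.66 FPKM) were not called, and XAF1 was at 0 to 0.0635 FPKM.

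ISG15 and its conjugating enzyme moved in opposite directions under the hairpin label. ISG15, the ubiquitin-like protein attached to targets during the interferon response, was at 10.5, 9.97 and 8.79 FPKM in control and 10.0, 11.9 and 11 in LPS. Hairpin-labelled libraries were at 15.2, 16.1 and 19.6 without LPS and at 20.3, 20.9 and 19.1 with LPS. All 6 hairpin-labelled libraries lay above the 6 others, by 0.76 ± 0.0998 without (limma adjusted p = 0.000313) and 0.85 with LPS (adjusted p = 0.000141). LPS gave 0.16 alone (adjusted p = 0.454) and 0.25 under the hairpin label (adjusted p = 0.513).

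UBE2L6, the E2 enzyme of ISG15 conjugation, was at 9.82, 8.09 and 9.6 FPKM in control and 11, 10.4 and 10.2 in LPS, and under the hairpin label at 7.22, 7.3 and 8.15 without and 7.56, 7.89 and 7.87 with LPS. The difference with LPS was -0.41 (limma adjusted p = 0.00259) with no overlap. The one without LPS was -0.26 ± 0.0776 (adjusted p = 0.0298), where control replicate 2 lay within the hairpin-labelled range, and it was lost without control replicate 1 or 3 or PINT shRNA1 replicate 1 or 2. USP18, the protease that removes ISG15 (0.31 to 0.78 FPKM), HERC6 (2.62 to 3.23 FPKM) and the antibody receptor TRIM21 (3.74 to 7.97 FPKM) were called in no contrast.

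DTX3L and PARP9 form a ubiquitin ligase complex, and PARP14 is, like PARP9, a member of the PARP family of ADP-ribosyltransferases. DTX3L was at 12.4, 13.5 and 13.3 FPKM in control and 13.6, 14.2 and 13.6 in LPS, and under the hairpin label at 10.5, 10.0 and 10.3 without and 10.7, 10.4 and 10.7 with LPS. All 6 hairpin-labelled libraries lay below the 6 others (-0.33 ± 0.0492, limma adjusted p = 0.000688, and -0.37, adjusted p = 0.000342). PARP9, its partner, stayed between 3.53 and 4.3 FPKM and was not called. In GENCODE 29, 3.7% of the exon bases of DTX3L overlap PARP9 on the opposite strand, and whether counting used strand is not given in the sources used here.

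PARP14 was at 14.5, 14.6 and 14.7 FPKM in control and 17.6, 18.3 and 17 in LPS. Under the hairpin label it was at 14.8, 14.9 and 14.4 without LPS and 15.3, 14.4 and 15.1 with LPS. The LPS libraries stood above all 9 others. The LPS change was 0.27 ± 0.0448 (limma adjusted p = 0.00972), and under the hairpin label it was 0.02 (adjusted p = 0.921). The difference of these responses was -0.24 ± 0.0633 and did not pass over all genes (adjusted p = 0.323). The hairpin difference was -0.23 with LPS (adjusted p = 0.0029) and 0.01 without (adjusted p = 0.872). The nuclear body proteins SP100 (6.98 to 9.71 FPKM) and PML (4.35 to 7.64 FPKM) were called in no contrast.

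**Figure D5:**
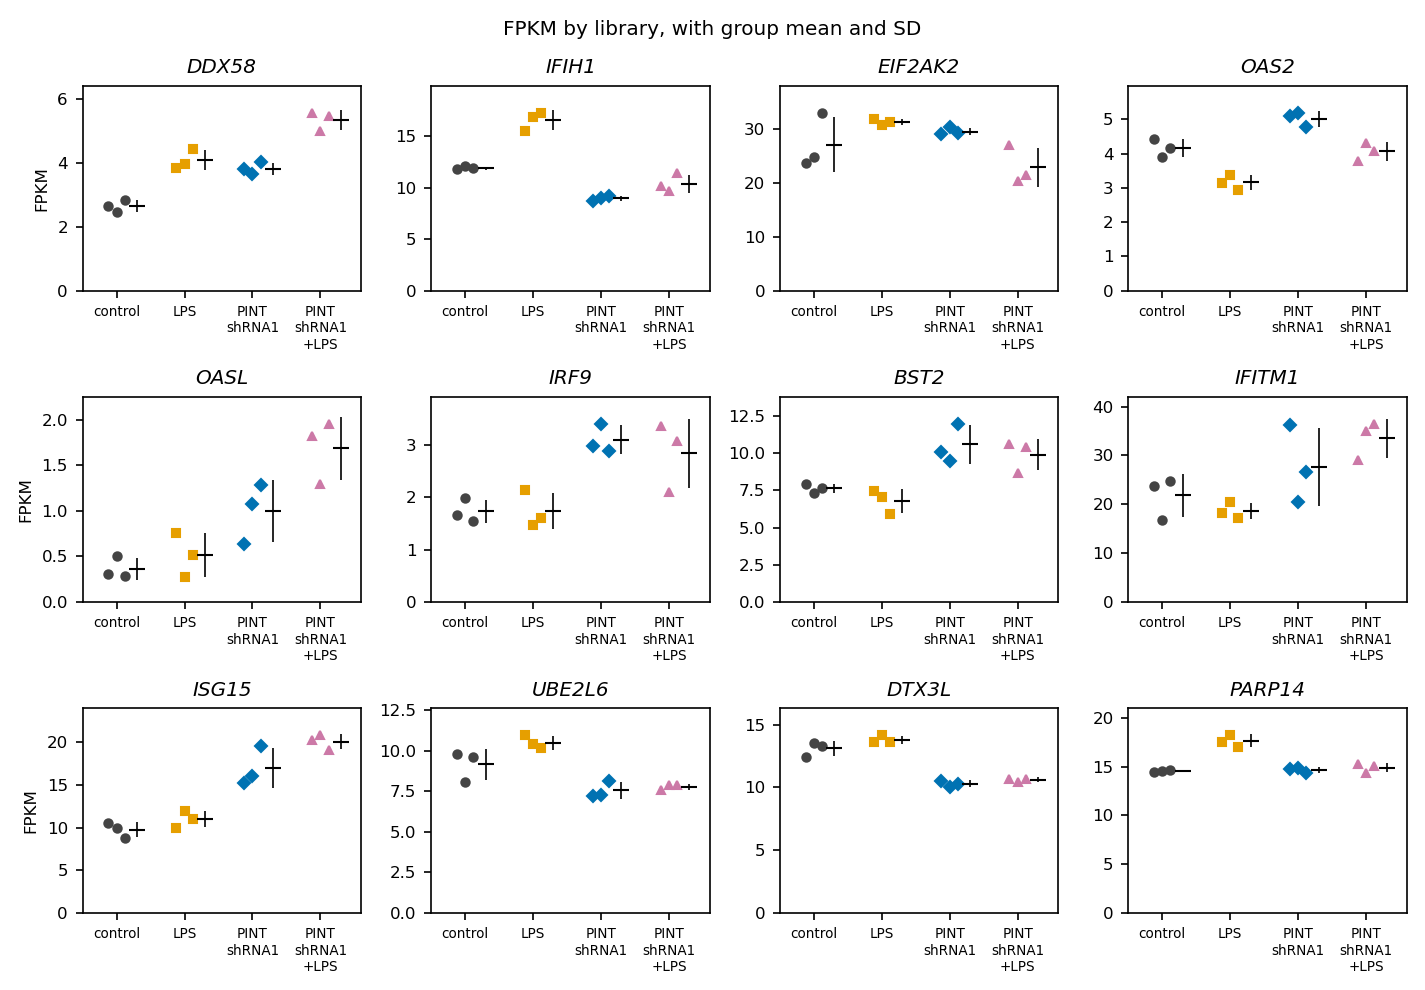
FPKM per library (points) with the group mean and SD (bars) for 12 members in the 4 groups. ISG15, BST2, OASL and IRF9 sit higher in the hairpin-labelled groups, IFIH1, DTX3L and UBE2L6 lower, and PARP14 is highest in the LPS group.

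Interferon genes themselves were barely listed. Of 10 ligand genes (type I, II and III), 5 were at 0 in all 12 libraries and none passed the filter. The highest was IFNE, an epithelial type I interferon, at 0.135 to 0.352 FPKM, and no other ligand exceeded 0.0906 FPKM. Secreted protein was not measured.

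Other genes of the pathway were counted from lists of 76 symbols, of which 75 were in the table and 50 passed the filter. LPS went with 6 higher and 0 lower (12%, against 2.76% of all tested genes), but the count was 1 when control and LPS were fitted alone, 2 without control replicate 1, and 3 without any 1 of the other control and LPS libraries. The share of all tested genes called was then 0.738%, 1.96% and 1.68% to 2.2%, in that order. The hairpin label went with 10 higher and 7 lower without LPS (34%, against 27.3% of all tested genes) and 8 higher and 12 lower with LPS (40%, against 29.2%). Under median scaling these were 8 higher and 9 lower, and 5 higher and 14 lower. LPS under the hairpin label and the interaction called none of the 50 by limma. Unadjusted p-values were under 0.05 for 10 and 4 of the 50, where 8.76% and 7.74% of all tested genes had one. For LPS without the hairpin label, 15 of the 50 and 16.8% of all tested genes had one.

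Among 10 tested receptor and kinase genes, IFNAR1 was lower under the hairpin label, with means of 17, 19.4, 13.3 and 13.5 FPKM in the groups as ordered above, control first (-0.34 ± 0.0666, limma adjusted p = 0.0035, and -0.5, adjusted p = 0.000301). IFNAR2, the other subunit of the type I receptor, averaged 7.54, 7.79, 9.85 and 10.5 FPKM. It was called higher in PINT shRNA1 with LPS than in LPS (0.41 ± 0.139, limma adjusted p = 0.0457). That call was lost in 11 of 21 alternatives, including median scaling and quantile normalization. It was also lost without control replicate 3, LPS replicate 1 or 2, PINT shRNA1 replicate 3 or replicate 1 or 3 of PINT shRNA1 with LPS. JAK1 was higher in both hairpin contrasts (0.2, adjusted p = 0.00262, and 0.15, adjusted p = 0.0137, the latter lost under median scaling). IFNGR2 rose with LPS alone (0.38 ± 0.0772, adjusted p = 0.0282), a call lost without control replicate 1 or 3 or LPS replicate 1 or 2, and IFNGR1, IFNLR1 and IL10RB were called in no contrast.

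The sensing adaptors gave 3 of the 6 pathway genes that rose with LPS: TRAF3 (0.34 ± 0.0381, limma adjusted p = 0.0007), the kinase IKBKE (0.45 ± 0.0606, adjusted p = 0.00257) and TICAM1, which encodes TRIF (0.42 ± 0.0892, adjusted p = 0.0342). All 3 were lower in PINT shRNA1 with LPS than in LPS, by -0.21, -0.38 and -0.26, as IFIH1 and PARP14 were. DDX58, which also rose with LPS, was instead higher there (0.35, limma adjusted p = 0.00745), and IFNGR2 was not called there. The interaction called none of these genes. The TICAM1 calls were each lost in 12 of 21 alternatives, including without any 1 library of control or LPS for the first and of PINT shRNA1 with LPS for the second. IKBKE was also lower under the hairpin label without LPS (-0.21, adjusted p = 0.0236), which was lost without control replicate 1 or 2 or PINT shRNA1 replicate 1 or 3. TANK was higher in both hairpin contrasts (0.36 and 0.23), the second lost without LPS replicate 1 or 2 or replicate 1 or 3 of PINT shRNA1 with LPS, and under median scaling or quantile normalization. Of the feedback inhibitors, CYLD, a deubiquitinase, rose with LPS (0.35 ± 0.0709, adjusted p = 0.0267) and was lower in PINT shRNA1 with LPS than in LPS (-0.41, adjusted p = 0.00157), and its LPS call was lost without any 1 control library or LPS replicate 1 or 3. TRIM38 was higher in both hairpin contrasts (0.45 and 0.37), and PIAS1 without LPS (0.27 ± 0.0667, adjusted p = 0.0123). These contrasts share the LPS libraries, so a high LPS library enters both.

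Among 20 tested interferon-stimulated genes outside the member list, the hairpin calls were 5 higher and 4 lower without LPS, where 16.9% of all tested genes were higher and 10.3% lower. With LPS they were 3 higher and 6 lower, where 17.7% of all tested genes were higher and 11.6% lower. DDX60, a helicase linked to RNA sensing, averaged 0.833, 0.807, 2.44 and 3.2 FPKM (1.14 ± 0.13, limma adjusted p = 0.000131, and 1.49, adjusted p = 1.77e-05). TRIM14, a MAVS adaptor, averaged 14.1, 14.5, 8.41 and 8.34 FPKM (-0.71 ± 0.0681, adjusted p = 3.87e-05, and -0.76, adjusted p = 2.11e-05). LAP3 was higher (0.55 and 0.33) and NMI lower (-0.31 and -0.45) in both.

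Markers of cell types moved with the hairpin label as well. The summed FPKM of 8 epithelial markers, of which 7 passed the filter and CDX1 was at 0, was 2340 to 2670 in control and 2360 to 2410 in LPS, and under the hairpin label 1440 to 1540 without and 1550 to 1610 with LPS. EPCAM was at 198 to 207 FPKM in the 6 libraries without the hairpin label and 136 to 155 FPKM in the 6 with it. The sum is mostly KRT8, KRT18 and KRT19, and the markers did not all go one way: CDX2 averaged 10.2 FPKM in control and 13.4 in PINT shRNA1, and CDH1 6.48 and 6.35. For 9 leukocyte markers, 4 passed, and the sums were 3.25 to 4.33, 3.41 to 4.46, 4.25 to 5.55 and 4.22 to 5.05 in the same order. PTPRC was at most 0.0713 FPKM and FCGR3A at 0 in all libraries. CD68 averaged 0.751 FPKM in control and 0.886 in LPS, and under the hairpin label 1.45 without and 1.63 with LPS. CD33 averaged 0.33, 0.424, 0.647 and 0.685 FPKM in that order, LYZ 2.28, 1.89, 1.58 and 1.23, and ITGAM 0.357, 0.306, 0.433 and 0.465. Of 3 plasmacytoid dendritic cell markers, CLEC4C was at most 0.047 and LILRA4 at most 0.0922 FPKM, while GZMB was at 1.74 to 2.4 FPKM without and 5.19 to 7.56 FPKM with the hairpin label. The sums of 7 fibroblast and endothelial markers were 0.773 to 0.909, 0.924 to 1.32, 1.09 to 1.35 and 0.977 to 1.5. The part of depth, of the epithelial and leukocyte markers and of GZMB in the member differences was not tested.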

How the data were processed

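Total RNA of SW480 cells was sequenced on an Illumina instrument. Fastp, HISAT2 2.1.0 and StringTie 1.3.4d are named, with the builds GRCh37 and hg19, in the submitters' processing notes. The authors deposited 1 table of FPKM values per gene and library, and whether counting used strand is not given in the sources used here. Of its columns, 12 were used and 6 were not, because their names match no sample here. The 3 columns labelled PINT shRNA1 each match 2 of the 6 samples so labelled, so whether a column holds 1 or both is not recorded.

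The 17214 of 57905 genes that reached 0.5 FPKM in 3 or more libraries were fitted as log2(FPKM + 0.5) with limma 3.58.1 (R 4.3.3), as group means with an intensity trend and no covariate. The 4 groups share 1 estimate of the spread. Tests were two-sided and adjusted over all tested genes of each of 5 contrasts. Promoter windows came from RefSeq (GRCh38.p14). Exon overlaps came from GENCODE 29 on GRCh38, a build other than that of the files, so no gene coordinates of the files are given.

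Values in every library are given for members called in any contrast whose higher group averaged 1 FPKM or more. Other pathway genes named are the called ones with the smallest p of each list, up to 4, with the ligands and receptors in any case; 1 gene of the lists is not reported here. IRF1 is given in every library outside this rule, chosen after its values were seen. Members and lists were chosen with earlier results of these data known, so no count over them is independent support. The deposited FPKM come without fragment counts, so no counting error is given, and the relative depths are estimates. Alternatives covered scaling, pseudocount, filter, trend, replicate block, the groups fitted and each library left out, and for the pathway genes and LINC-PINT they were added after seeing the data.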

Additional observations from a re-analysis of the deposited data

How the results depend on the processing

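Of the 36 member calls, 20 held in every alternative in which the gene was tested and 16 were lost in at least 1. Counted among the 20 are IFI44 in both hairpin contrasts and IFIT1 and IFIT2 with LPS. With a filter of 1 FPKM these genes were not tested, so their calls were absent there. No member value that was called changed direction. With only the groups compared in the fit, LPS called 1 member and 127 genes. Without a filter, PINT shRNA1 against control called 9 members and 10.1% of all tested genes. LPS under the hairpin label called 1 member with median scaling and 1 with quantile normalization, and over all genes it called 59 with median scaling, 57 with quantile normalization and 18 without the intensity trend, against 32 as reported. With the replicate block, LPS called 3 members and 311 genes. The hairpin label called 13 members without and 17 with LPS, where 24.9% and 27.1% of all tested genes were called. LPS under the hairpin label called 0 members and 17 genes, and the interaction 0 members and 14 genes. No effect shared by libraries of the same replicate number was detected. Their 18 correlations, as deviations from the group means, ran from -0.048 to 0.057, and a library correlated best with its own number in 12 of 36 comparisons. These values cannot tell whether libraries of the same number were prepared together. Leaving out 1 library at a time, genes called with LPS ranged from 288 to 411, and with LPS under the hairpin label from 19 to 40. Members called with PINT shRNA1 against control ranged from 9 (without replicate 3 of PINT shRNA1) to 17, and the share of all tested genes called from 20.8% to 27.8%. With LPS in both groups the members ranged from 13 to 18 and the share from 22% to 29.8%. With LPS alone they ranged from 3 to 4 and from 1.68% to 2.4%. Among other genes of the pathway, LPS called 1 with only the groups compared and 2 to 5 with 1 library left out, and LPS under the hairpin label called 1 with median scaling, 1 with quantile normalization, 1 without a filter and 1 with a filter of 1 FPKM. Of the 31 calls of named pathway genes and LINC-PINT, 22 held in every alternative. Genes near the 0.5 FPKM filter (IFIT1, IFIT2, IFI44, OASL) have sizes that depend on the pseudocount.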
